A study of Mus musculus with 12 samples.

Results

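Histone genes were examined in the nucleus accumbens, which belongs to the ventral striatum, of adult mice whose mothers had been given an immune stimulus during pregnancy. A gene was a member if a probe of the array carried its symbol alone and the symbol began with H1f, H2ac, H2bc, H3c, H4c, H2az or H3f, or with Hist and a digit. This gave 36 of 18820 measured genes, namely 8 linker histone genes and 28 core histone genes, each represented by the probe whose mean over the 12 arrays was highest. Pregnant C57BL/6N mice had received 5 mg/kg poly(I:C), a viral mimic made of double-stranded RNA, intravenously on gestation day 17, or saline as the control. The offspring of both groups went through behavioural testing and were dissected at 12 weeks of age, and each group, named exposed and control here, gave 6 arrays labelled as biological replicates. No other allele or agent is named in the labels, and the sources used here do not give litter, sex or array batch, so litter mates may have been counted as independent animals.

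Chromatin is built from nucleosomes, in which DNA wraps around an octamer of the core histones H2A, H2B, H3 and H4, while a linker histone of the H1 family sits where the DNA enters and leaves. Most histone genes lie in clusters, are transcribed mainly while a cell copies its DNA, and give messages that end in a stem-loop in place of a poly(A) tail. Replacement histones, such as the H2A.Z and H3.3 proteins and the linker histones H1.0 and H1.10, are made outside of that phase from polyadenylated messages and supply non-dividing cells such as neurons. Some cluster genes are known to give polyadenylated messages as well. Per the labels' protocols, the RNA was copied with a primer of oligo(dT), which binds poly(A) tails, so messages without a tail may be read incompletely, and the part of this in the values was not tested.

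Upstream sequence is shown for H1f2, the member the comparison turns on, and for H1f1 and H1f5, replication-dependent linker genes that did not pass the test, as a contrast picked after their values were seen. These are the 250 bases before each gene's start in RefSeq, build GRCm38.p6, written 5′ to 3′ along the gene. Capitals mark the letters AAACACA (the H1 box), CCAAT and TATAAA (a form of the TATA box) on either strand. Only these exact letters were searched. The letters tatatata near the start of H1f2 resemble a TATA box and carry no mark, so a window without TATAAA may still hold a related form. The H1f2 window is chr13:23738557-23738806 on the plus strand, that of H1f1 is chr13:23763418-23763667 on the plus strand, and that of H1f5 is chr13:21780626-21780875 on the minus strand.
H1f2: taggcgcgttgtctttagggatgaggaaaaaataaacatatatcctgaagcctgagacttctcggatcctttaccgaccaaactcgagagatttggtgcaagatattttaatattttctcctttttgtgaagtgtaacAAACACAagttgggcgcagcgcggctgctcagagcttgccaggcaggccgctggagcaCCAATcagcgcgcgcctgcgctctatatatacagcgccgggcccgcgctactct
H1f1: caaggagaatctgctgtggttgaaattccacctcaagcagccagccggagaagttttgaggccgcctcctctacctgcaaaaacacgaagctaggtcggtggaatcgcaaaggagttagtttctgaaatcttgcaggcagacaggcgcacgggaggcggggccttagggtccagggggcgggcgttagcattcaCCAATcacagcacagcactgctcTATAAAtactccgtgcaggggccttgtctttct
H1f5: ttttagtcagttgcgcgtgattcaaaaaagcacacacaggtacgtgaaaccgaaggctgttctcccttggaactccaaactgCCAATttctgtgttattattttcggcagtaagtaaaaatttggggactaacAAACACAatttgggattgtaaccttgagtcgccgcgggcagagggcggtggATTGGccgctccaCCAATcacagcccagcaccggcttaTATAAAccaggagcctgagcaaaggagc

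The H1 box stood 112 to 106 bases before the start of H1f2 and 117 to 111 bases before that of H1f5, and the CCAAT letters next to the start stood 54 to 50, 56 to 52 and 53 to 49 bases before the starts of H1f2, H1f1 and H1f5. Of the 8 linker genes, all with a RefSeq window, 4 held AAACACA (H1f2, H1f3, H1f5 and H1f6), 6 held CCAAT, 3 held TATAAA and 0 held TTTGCAT, which is 7 letters of the octamer element of H2B promoters. Of the 24 core genes with a window, the same letters were found in 5, 20, 14 and 11. In all 32851 windows of 250 bases the shares were 6.25% for AAACACA, 33.8% for CCAAT, 12.4% for TATAAA and 4.12% for TTTGCAT. Among 107 matches in the members' windows, 0 pairs of matches to different strings overlapped, and a match describes the letters only.

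All arrays together gave 35556 log2 values each, array medians lay between 4.78 and 4.85, and correlations between arrays ran from 0.991 to 0.997. The markers of medium spiny neurons, which make up most neurons there, averaged 9.08 ± 0.20 on the log2 scale in controls and 9.16 ± 0.14 in exposed offspring (SD, n = 6 arrays per group), with 9 of 9 measured markers above the median level of all probes, 5.47. Control 4 was the highest of the 12 arrays for 22 of the 36 members, whereas it was the highest for 12.5% of all probes, and it lay above its group's mean by a median of 0.15 over the members against 0.00039 over all probes. The difference without this array is given for many named members, and its absence elsewhere does not mean that the difference stayed.

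Among the linker histones, H1f2 fell in exposed offspring and no other measured member passed the test. H1f2 encodes H1.2, a somatic linker histone that is abundant in many tissues. Its log2 expression had a lowest value of 7.15, a median of 7.34 and a highest value of 7.72 over the control arrays, against 6.71, 6.87 and 6.95 over the poly(I:C) arrays. Every poly(I:C) array lay below every control array. The mean went from 7.36 ± 0.19 to 6.87 ± 0.09 (SD, n = 6 per group) (log2 change -0.49, interval of 95% from -0.66 to -0.33, p adjusted in limma = 0.0433), or 71.0% of the control level. Because whole tissue was measured, fewer cells expressing the gene and less RNA per cell cannot be told apart.

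Over all probes 0.0613% passed the adjusted threshold of 0.05 (0.033% lower and 0.0283% higher in exposed offspring), and the groups did not overlap for 0.523% on the lower side and 0.603% on the higher side. Among the 36 histone genes 1 passed and 1 had groups that did not overlap, H1f2 in both cases, which was singled out with its difference known. The direction held in all 22 alternative fits, with unadjusted p-values up to 0.00610, but the adjusted call held in 8 of them. In limma it was kept when control 1, control 3 or poly(I:C) 6 was left out. It ended when any of controls 2, 4, 5 and 6 or of the poly(I:C) arrays 1 to 5 was left out (limma adjusted p from 0.0509 to 0.134), and without control 4 the log2 difference was -0.42 (adjusted p = 0.0524). The fit without control 4 gave 0 calls over all probes. In it the unadjusted limma p of H1f2 was 2.5e-06, against 1.9e-05 with all arrays.

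**Figure D1:**
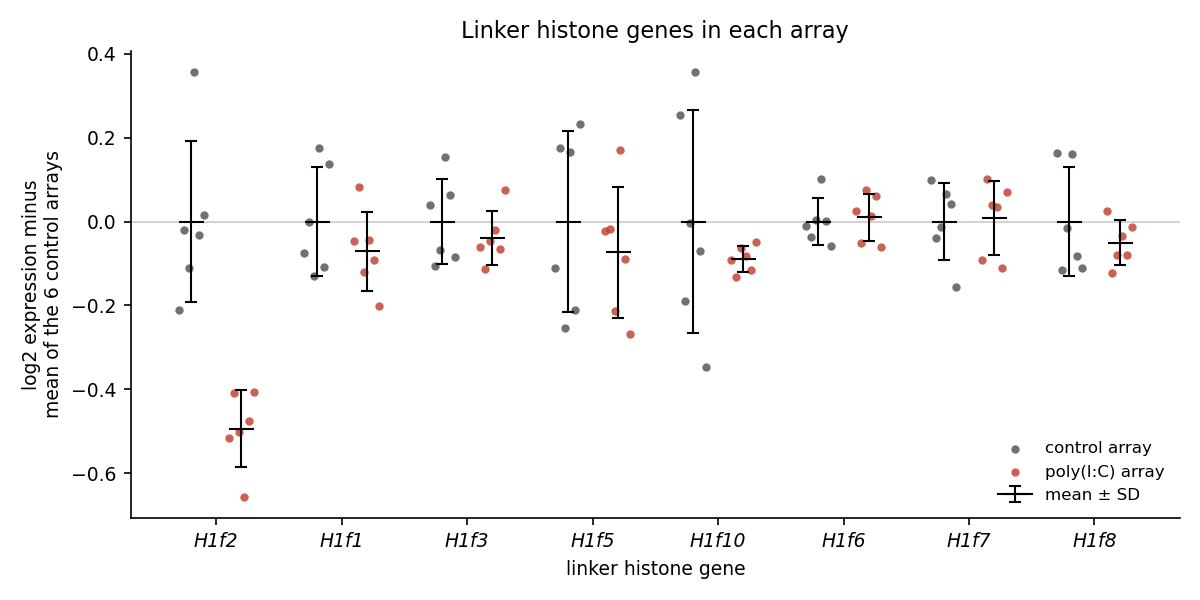
Log2 expression of the 8 linker histone genes in each array, given as the difference from the gene's mean over the 6 control arrays. Grey points are control arrays, red points are poly(I:C) arrays, and bars are mean ± SD. For H1f2 the poly(I:C) mean lies at -0.49 and the groups do not overlap, whereas for the other 7 genes they do.

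The other somatic linker histones did not pass the test. H1f1, which encodes H1.1, ran from 5.62 to 5.93 around a median of 5.72 in controls and from 5.55 to 5.83 around 5.68 in exposed offspring, a log2 difference of -0.070 (95% interval -0.20 to 0.060), and -0.035 without control 4. H1f5, which encodes H1.5, ran from 5.05 to 5.54 around 5.33 and from 5.04 to 5.47 around 5.25 (difference -0.073, 95% interval -0.28 to 0.13, and -0.040 without control 4). H1f10, the replacement histone H1.10, ran from 6.86 to 7.56 around 7.17 in controls but only from 7.07 to 7.16 around 7.12 in exposed offspring (difference -0.089, 95% interval -0.29 to 0.12). The poly(I:C) values of H1f10 thus lay inside the control range, with an SD of 0.03 against 0.27, and the difference ran from -0.16 without control 6 to -0.018 without control 4. With the mean of oligodendrocyte markers as a covariate, a fit added after the data were seen, it was -0.44 for H1f10 (limma adjusted p = 0.242), -0.23 for H1f8 and -0.40 for H1f2. H1f3, which encodes H1.3, was at 3.68 ± 0.10 and 3.64 ± 0.06 (difference -0.039, and -0.0079 without control 4), below the median level of all probes, where arrays resolve differences poorly.

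The 3 linker histones of germ cells served as members that should be little expressed in brain, and all of them lay below the median level. H1f6, the testis linker histone, was at 3.51 ± 0.06 in controls and 3.52 ± 0.06 in exposed offspring, a log2 difference of 0.011, and 0.031 without control 4. H1f7, a linker histone of spermatids, was at 4.85 ± 0.09 and 4.86 ± 0.09 (0.0078, and 0.021 without control 4). The oocyte linker histone H1f8 was at 4.02 ± 0.13 and 3.97 ± 0.05 (-0.051, and -0.019 without control 4). Limma adjusted p-values of the 7 linker histones beside H1f2 ran from 0.634 upward, and the groups overlapped for each of them. The median log2 difference over the 8 linker histones was -0.061 and over all probes 0.0016. Of the 8 genes 6 had a difference below 0, where 49.1% of all probes did, and without control 4 the linker median was -0.018.

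H1f2 was also set against each other linker histone by the log2 difference between both genes within an array. The pair difference was lower in exposed offspring for 7 of 7 pairs by a two-sided exact permutation test over all assignments of the arrays to groups, adjusted over the 7 pairs by Benjamini-Hochberg. Against H1f1 it went from 1.61 ± 0.12 in controls to 1.18 ± 0.14 in exposed offspring, a change of -0.42 (exact permutation p = 0.00216, adjusted p = 0.00378). The other pairs changed by -0.46 with H1f3, -0.50 with H1f6 and -0.50 with H1f7, each with the same exact p of 0.00216, the smallest that these permutations can give, and by -0.44 with H1f8 (exact p = 0.00433), -0.42 with H1f5 (exact p = 0.00649) and -0.41 with H1f10 (exact p = 0.0130). The groups did not overlap for the pairs with H1f1, H1f3, H1f6 and H1f7 and overlapped for H1f8, H1f5 and H1f10. All 7 pairs share the H1f2 probe, and that gene was chosen with its difference known, and 5 of the 7 partners (H1f3, H1f5, H1f6, H1f7 and H1f8) lay below the median level of all probes. The pair values therefore largely restate the H1f2 difference and are no independent evidence. The pairs were not fitted with the oligodendrocyte covariate. Leaving out any 1 array kept 7 of 7 pairs past the adjusted threshold, whereas taking the replicate number as a block kept 5 of 7. Those counts too restate the H1f2 difference.

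**Figure D2:**
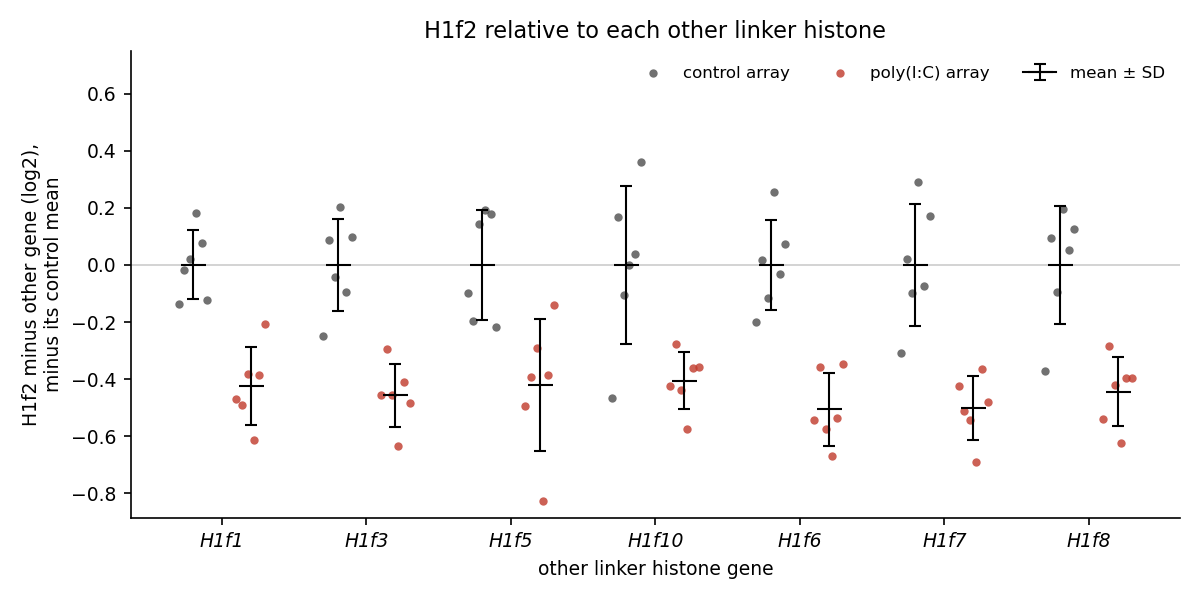
Log2 difference between H1f2 and each other linker histone within an array, after subtracting the mean of that difference over the 6 control arrays. Grey points are control arrays, red points are poly(I:C) arrays and bars are mean ± SD. The poly(I:C) means lie between -0.50 and -0.41, with no overlap between groups for H1f1, H1f3, H1f6 and H1f7.

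Of the 28 core histone genes 0 passed the adjusted threshold, and 2 had an unadjusted p under 0.05, both H2B genes with lower values in exposed offspring. H2bc4, a cluster gene for histone H2B, had a lowest value of 8.60, a median of 8.92 and a highest value of 9.08 in controls, against 8.45, 8.48 and 8.76 in exposed offspring. Its poly(I:C) 6 array at 8.76 overlapped the lower controls 1 and 2, at 8.60 and 8.71, while the other 5 poly(I:C) arrays lay below all controls. Means were 8.88 ± 0.19 and 8.54 ± 0.12, -0.34 apart (95% interval -0.51 to -0.17, p adjusted in limma = 0.104). H2bc4 passed in 1 of 12 fits with 1 array left out, that without control 1 (limma adjusted p = 0.0484). Of the 10 other alternatives it passed in 1, that with array weights (-0.36, limma adjusted p = 0.0368). Without control 4 the difference was -0.30 (limma adjusted p = 0.201). A further probe of the gene, read at 3.06, gave -0.035, and the mean of both gave -0.19.

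H2bc3, a further H2B gene of the same cluster, ran from 5.94 to 6.42 around a median of 6.08 in controls and from 5.80 to 6.09 around 5.96 in exposed offspring. The difference was -0.17 (95% interval -0.32 to -0.011, limma adjusted p = 0.316), and without control 4, the highest array at 6.42, it was -0.10. Counting all 36 members, 3 had an unadjusted p under 0.05 on the lower side and 0 on the higher side, where all probes gave 6.57% and 7.83%. A share of 3 in 36 is near that background. Among core genes the count of 2 became 1 without control 2 or without either of the poly(I:C) arrays 2 and 3, and 3 without control 1 or poly(I:C) 6.

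By family, 7 of the 9 H2B genes, 5 of the 8 H2A genes, 4 of the 5 H3 genes and 5 of the 6 H4 genes had a difference below 0, with medians of -0.045, -0.0050, -0.056 and -0.022 on the log2 scale. Over the 28 core genes the median was -0.026 with 21 below 0, and without control 4 it was -0.0081 with 15 below 0. The testis H2B gene H2bc1 was at 4.95 ± 0.06 in controls and 4.86 ± 0.11 in exposed offspring (difference -0.090). H2ac21, an H2A gene, was at 9.00 ± 0.10 and 8.92 ± 0.08 (-0.085, and -0.053 without control 4), and H4c3, an H4 gene, at 5.09 ± 0.18 and 4.95 ± 0.18 (-0.14). H4c4, also an H4 gene, was at 9.97 ± 0.12 and 9.95 ± 0.09 (-0.020, and 0.026 without control 4). For these 4 genes limma gave adjusted p-values between 0.446 and 0.919.

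On the higher side no core gene reached an unadjusted p under 0.05. The members with the smallest p-values in that direction were H2ac8 with a log2 difference of 0.059, H2bc9 with 0.052, the testis H2A gene H2ac1 with 0.039, H4c14 with 0.011 and H3c4 with 0.0069. Without control 4 the last pair was at 0.048 and 0.059, and H2ac8 was at 0.075. H2ac8 and H3c4 were read at 2.83 and 3.64 on average over the 12 arrays, well below the median level. H2bc9 went from 5.95 ± 0.12 to 6.00 ± 0.06 and H4c14 from 7.21 ± 0.10 to 7.22 ± 0.06. Groups overlapped for each of these 5 genes. The other 13 core genes had differences between -0.10 and 0.0067 with adjusted p-values from 0.539 upward, and 9 of the 13 were at or below the median level.

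**Figure D3:**
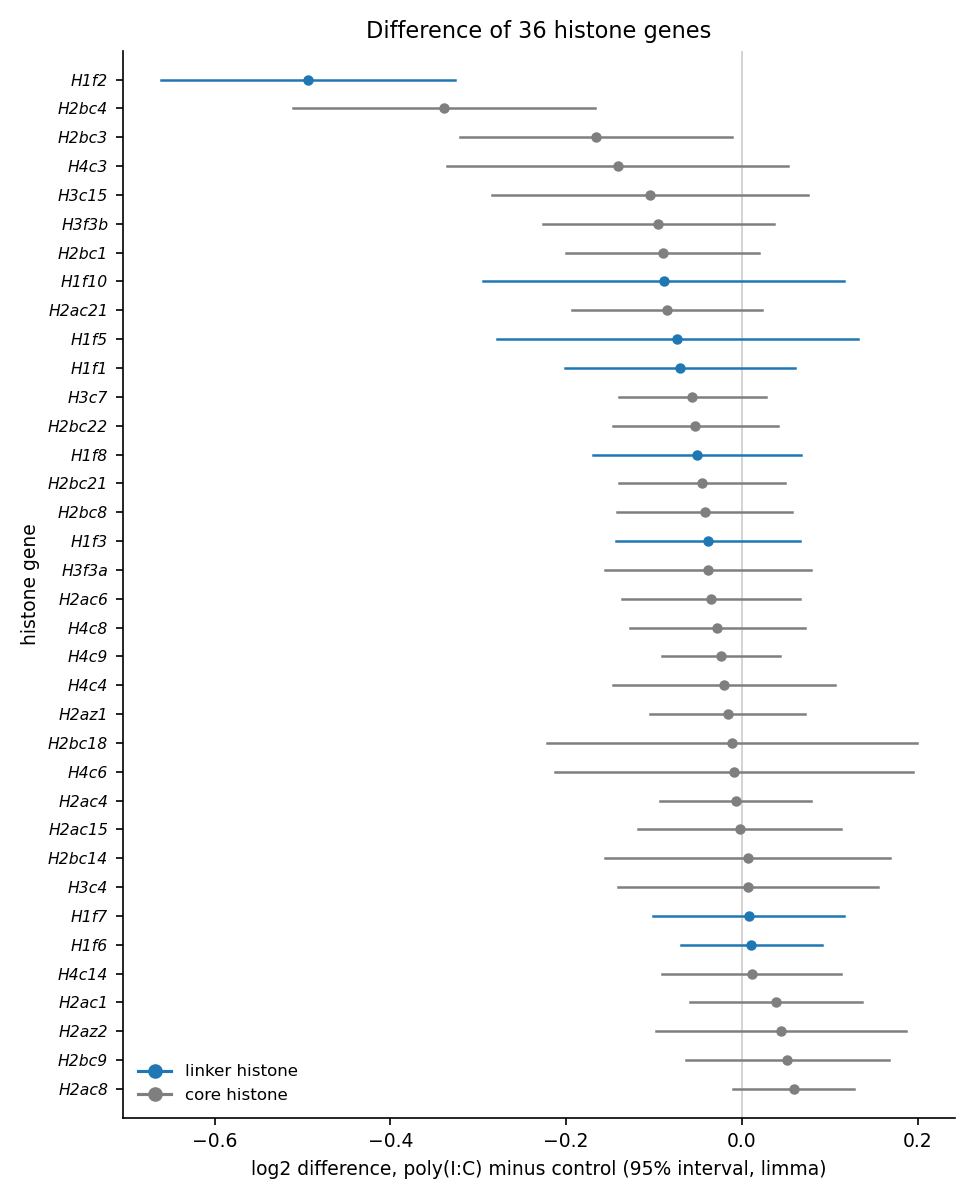
Log2 difference between poly(I:C) and control offspring for the 36 histone genes, with the 95% interval of the limma fit. Linker histones are blue and core histones grey, and H1f2 at -0.49, H2bc4 at -0.34 and H2bc3 at -0.17 are the genes whose interval does not reach 0.

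Replacement variants of the core histones, which supply non-dividing cells, were all read above the median level and did not pass the test. H3f3b and H3f3a both encode H3.3. H3f3b ran from 9.10 to 9.39 around a median of 9.24 in controls and from 9.02 to 9.27 around 9.16 in exposed offspring, a log2 difference of -0.095 (95% interval -0.23 to 0.036). Without control 4 it was -0.066. H3f3a ran from 7.92 to 8.26 around 8.18 and from 7.97 to 8.18 around 8.13, a difference of -0.039 (-0.018 without control 4), and its 3 further probes gave -0.037, -0.023 and -0.040. For H2A.Z, which marks promoters, H2az1 was at 8.09 ± 0.06 and 8.08 ± 0.07 (-0.016, and -0.0064 without control 4) and H2az2 at 8.19 ± 0.16 and 8.24 ± 0.07 (0.045). Adjusted p in limma lay between 0.501 and 0.902 for these 4 genes, and the groups overlapped throughout. The median over the 4 variants was -0.027 and over the 24 replication-dependent core genes -0.026.

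**Figure D4:**
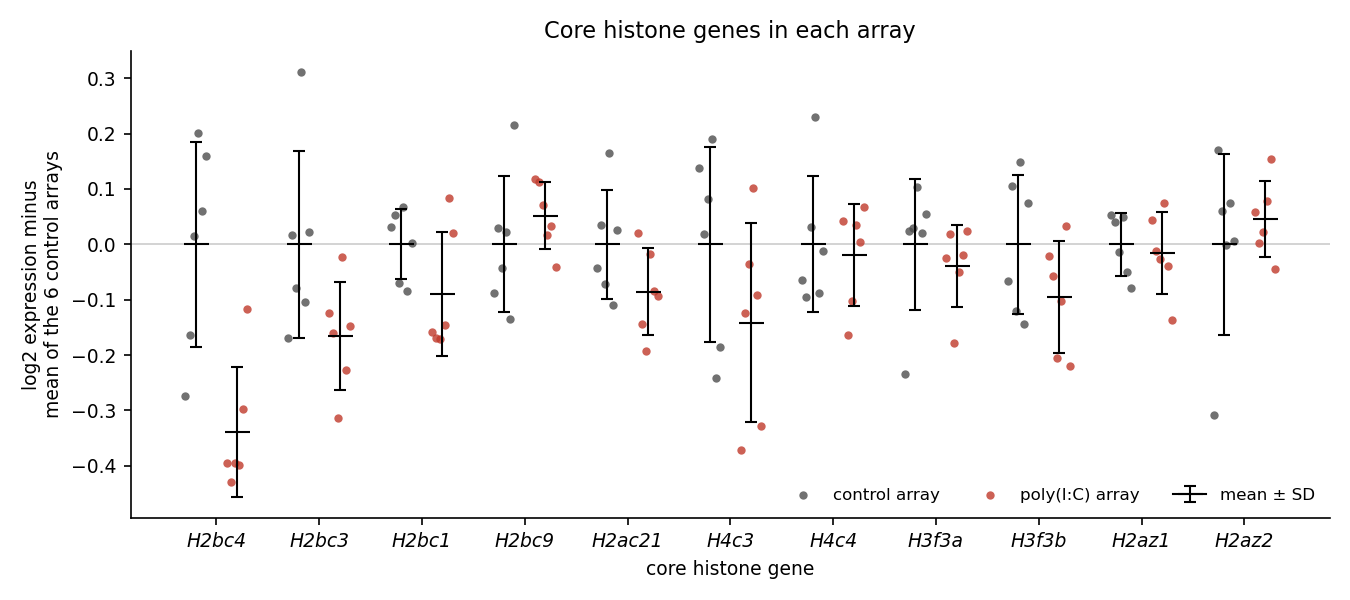
Log2 expression of 11 core histone genes in each array, given as the difference from the gene's mean over the 6 control arrays, with replication-dependent genes on the left and H3.3 and H2A.Z genes on the right. Grey points are control arrays, red points are poly(I:C) arrays and bars are mean ± SD. H2bc4 has its poly(I:C) mean at -0.34, with 1 poly(I:C) array inside the control range, and the groups overlap for all 11 genes.

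Histone genes of a family have nearly identical coding sequences, and a further 39 rows of the table were shared by 2 to 11 genes of which at least 1 was a histone. They were left out of the test because no single gene can be named, and a probe that carries 1 symbol may still take up RNA of its relatives. The 7 rows shared by H2B genes were all lower in exposed offspring, by -0.17 to -0.14 on the log2 scale, and the 13 rows of H2A genes by -0.039 to -0.014. Of 11 rows of H3 genes 10 were higher, by at most 0.048, and of 6 rows of H4 genes 5 were lower, with differences down to -0.049, and 1 was higher at 0.059. The groups overlapped in all 39 rows, and only 37 of the rows held distinct values, so rows of a family are not separate measurements. H1f4 was read only in a row shared with an H2B gene (difference -0.050).

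The members lay on 6 chromosomes in the RefSeq order, 24 of them on chromosome 13, where 18 had a difference below 0. The 3 members with an unadjusted p under 0.05 were all on that chromosome, at places 16, 19 and 20 of the 24. Between H2bc4 and H1f2 lay H1f6 at 0.011, H4c3 at -0.14 and Hfe, an iron-regulating gene of the MHC class I type that is no histone, at -0.097 (limma adjusted p = 0.533). Among measured genes H2bc3 and then H2ac4, at -0.0072, came after H1f2, with H3c3 and a pseudogene in between that were not measured here by a probe of their own. Nearness in order was described and not tested.

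**Figure D5:**
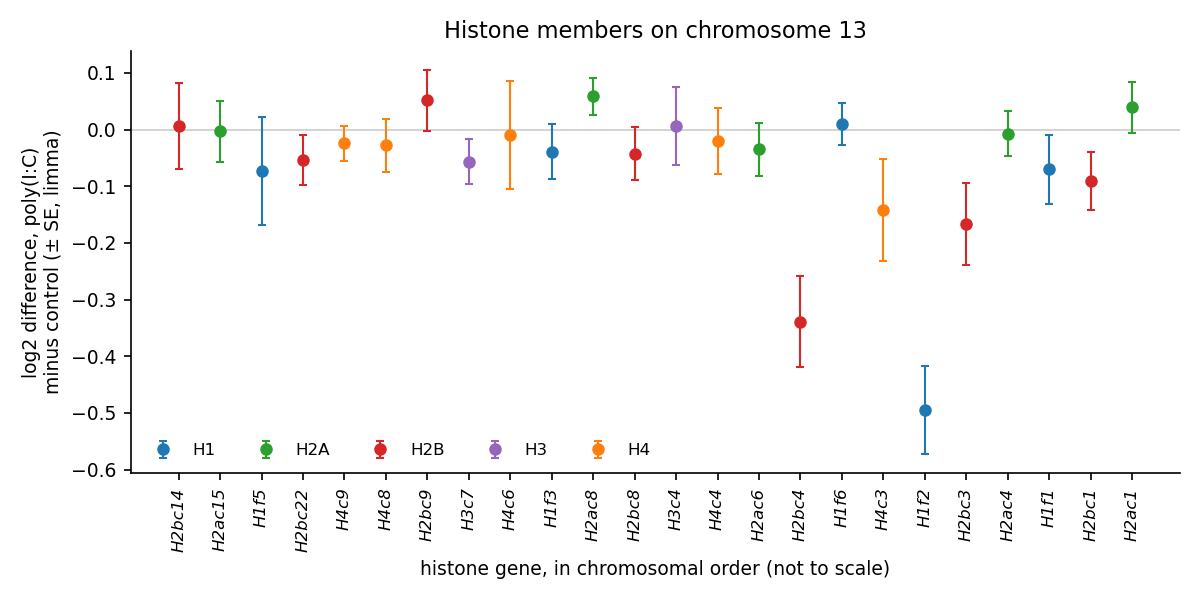
Log2 difference between poly(I:C) and control offspring (± SE of the limma fit) for the 24 histone members on chromosome 13, in chromosomal order and not to scale. Colours mark the histone family, and H2bc4 at -0.34, H1f2 at -0.49 and H2bc3 at -0.17 stand at places 16, 19 and 20. Between H2bc4 and H1f2 stand H1f6 at 0.011 and H4c3 at -0.14.

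Genes that make, carry and compete with histones gave no call over all probes. Of 13 genes of histone mRNA processing 7 were lower and 6 higher in value, and 1 in each direction had an unadjusted p under 0.05. They were Slbp, which binds the stem-loop of histone messages, at 5.62 ± 0.11 and 5.49 ± 0.08 (-0.13, p adjusted in limma = 0.289), and Lsm11, a subunit of the U7 particle that trims those messages, with 0.16 (adjusted p = 0.310). Of 28 histone chaperone and deposition genes 3 had an unadjusted p under 0.05 on the lower side and 1 on the higher side. Ptma, which encodes prothymosin alpha, a chaperone that binds linker histone, was at -0.19, the H2A.Z chaperone gene Anp32e at -0.23 and the H3.3 chaperone gene Hira at 0.11, with adjusted p-values from 0.195 to 0.231.

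Among 9 genes of other nucleosome-binding proteins 7 were lower in value, with Hmgn2, which competes with linker histones for nucleosomes, at -0.14 (limma adjusted p = 0.290) as the only one with an unadjusted p under 0.05. The 6 other histone variants gave 1 such value, the H2A gene H2aw at 0.11 (limma adjusted p = 0.292). Medians were -0.024 for mRNA processing, 0.011 for chaperones, -0.057 for nucleosome-binding proteins and -0.0073 for the other variants, beside 0.0016 over all probes. In the shares of unadjusted calls these lists stood against 14.4% of all probes in either direction.

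Markers of dividing cells, in which cluster histones are mostly made, were 11 lower and 10 higher in value among 21 measured genes, and 0 passed over all probes. Their mean was 4.72 ± 0.02 in controls and 4.71 ± 0.05 in exposed offspring, under the median level. Mki67, a protein of cycling cells, was at 3.96 ± 0.10 and 3.97 ± 0.12, and the marker with the smallest p was Pcna, the DNA polymerase clamp, at -0.18 (8.37 ± 0.07 against 8.18 ± 0.07, limma adjusted p = 0.0966). On the lower side 3 of the 21 genes, Pcna among them, had an unadjusted limma p under 0.05, and on the higher side 1. Over all probes 6.57% and 7.83% did. Next by p were Cdk1 at -0.11 and E2f2 at 0.12, both read below the median level.

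Markers of some other cell types differed between the groups. Oligodendrocyte markers were lower for 8 of 8 genes, each with an unadjusted limma p under 0.05, where 6.57% of all probes had one on that side. There was 1 call (Mobp), where 0.033% of all probes were called lower. The groups did not overlap for 3 of the 8 genes, against 0.523% of all probes on the lower side. The mean of the 8 markers ran from 8.15 to 8.68 in controls and from 7.96 to 8.17 in exposed offspring. Choroid plexus markers were lower for 10 of 10 genes with 0 calls, 2 of them with an unadjusted limma p under 0.05. Their mean ran from 4.54 to 6.80 against 4.35 to 4.59, with Ttr, the transthyretin gene that marks this tissue, at 8.20 ± 2.13 and 5.38 ± 0.74. Controls 4 and 6 had means of 5.98 and 6.80 and control 2 of 5.00, but controls 1, 3 and 5 of 4.54, 4.60 and 4.60. Only 2 of the 10 choroid plexus markers and 4 of the 8 cortical neuron markers lay above the median level of all probes. Cortical neuron markers were higher for 7 of 8 genes with 0 calls, and their mean ran from 5.09 to 6.16 against 5.55 to 6.36. Of these genes 6 had an unadjusted limma p under 0.05 on the higher side, where 7.83% of all probes did. With the oligodendrocyte mean as a covariate the H1f2 difference was -0.40 (limma adjusted p = 0.245), and with 3 covariates, the marker means of choroid plexus, of cortex and of septal, pallidal and diencephalic neurons, -0.34 (adjusted p = 0.274). Without controls 4 and 6, which had the highest choroid plexus means, it was -0.40 (limma adjusted p = 0.126). For H2bc4 the same fits gave -0.26, -0.15 and -0.25.

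Oligodendrocyte precursor markers were lower for 5 of 6 genes, 4 of them with an unadjusted p under 0.05, where 6.57% of all probes had one on that side, and 0 passed over all probes. Pdgfra, the remaining precursor marker, was higher in value at 0.073 (limma adjusted p = 0.751). Bcas1, a gene of early oligodendrocytes, had groups that did not overlap (-0.32, limma adjusted p = 0.0791), where 0.523% of all probes did so on the lower side. The mean difference of the list was -0.14. Septal, pallidal and diencephalic markers had 3 genes lower and 2 higher with an unadjusted p under 0.05 and 0 calls. Prox1 was at -0.49 and Tcf7l2 at -0.42, against 0.18 for Lhx2 and 0.099 for Gbx1. Astrocyte, microglial, endothelial and blood markers gave 0 calls, with mean differences of 0.019, -0.034, 0.017 and -0.030. The part of these cell types in the histone values was not tested beyond those fits.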

How the data were processed

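Total RNA from the accumbens (core and shell together) of 12 mice was hybridised to Affymetrix Mouse Gene 1.1 ST arrays. The deposited table holds log2 expression values, which the authors made with RMA, and Partek 6.6 is also named, per the submitters' processing notes. RMA includes quantile normalization, so a shift of all genes would not be seen.

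Of 35556 probes, the 21218 with 1 gene symbol were tested together in limma 3.58.1 (R 4.3.3), exposed against control with no covariate, with Benjamini-Hochberg adjustment at 0.05. The members and gene lists were chosen with earlier results of these data known. Named were every linker histone, the H2A.Z and H3.3 genes, of the other core histones the 5 with the smallest p in each direction and the 3 with the highest mean, and examples from the 3 smallest p-values of each other list. Mki67, Gbx1 and Pdgfra were named outside of that rule. On simulated data with 200 changed probes, 64% were recovered at a log2 change of 0.25 and 94% at 0.5, with 10 false calls. Changes of up to 2 on the log2 scale were put into those data. In the measured arrays limma called only 13 of 21218 probes, and H2bc4 at -0.34 did not pass. The recovered shares are therefore no measure of power for the histone genes, and a gene without a call may still differ. The number of arrays limits the precision. Upstream windows came from RefSeq, build GRCm38.p6, whose gene table matched 36 of 36 members. The alternatives were another normalization, variance model, weighting, filter, probe summary, block or covariate, and leaving out arrays.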

Additional observations from a re-analysis of the deposited data

Results flagged for a closer look

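In 4 of 60 groups of 6 arrays examined, 1 array lay far from the rest by Dixon's criterion at its 95% level. The groups were the control or the poly(I:C) values of each named histone gene and of each H1f2 pair difference. Chance alone flags about 1 in 20 independent groups, but the pair differences all share the H1f2 values. All 4 flags were on gene values. For H2ac8, control 4 was the highest control at 2.88 (log2). For H2az2, control 1 was the lowest control at 7.88. For H3f3a, control 1 was the lowest control at 7.92 and poly(I:C) 3 the lowest exposed array at 7.97. None of these genes passed the limma test.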

How the results depend on the processing

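H1f2 stayed lower in exposed offspring in 22 of 22 alternatives. Leaving out 1 array gave log2 differences from -0.54 to -0.42 for H1f2, from 0 to 84 calls over all probes, and from 1 to 3 core genes with an unadjusted p under 0.05. Calls over all probes numbered 38 after a second quantile normalization, 1 with trended and robust variances, 140 with array weights and 20 above the median level. There were 0 calls in limma with the replicate block, without controls 4 and 6, with the 3 tissue means and with the oligodendrocyte mean, where 2801, 1768, 2167 and 2915 probes had an unadjusted p under 0.05. The H1f2 difference lost its limma call at -0.49 with trended variances (adjusted p = 0.0615), -0.49 with the replicate block (0.128), -0.40 without controls 4 and 6, -0.34 with the tissue means and -0.40 with the oligodendrocyte mean. That last fit, chosen after seeing the data, gave 3 of 8 linker and 4 of 28 core genes with an unadjusted p under 0.05. Beside them stood 2915 of all 21218 probes. In that fit H1f10 was at -0.44 and H1f8 at -0.23. The block kept 5 of 7 pairs past the threshold. Replicate numbers did not pair the arrays, since same-numbered arrays had correlations of -0.20 to 0.27 and 1 of 6 matched its own number best.

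Small differences changed sign. Over arrays left out they ran from -0.0022 to 0.031 for H1f6, -0.023 to 0.032 for H1f7, -0.034 to 0.0079 for H2az1, -0.017 to 0.079 for H2az2, -0.0058 to 0.048 for H4c14, -0.020 to 0.059 for H3c4 and -0.039 to 0.026 for H4c4. H4c14 was at -0.012 after quantile normalization and H2az1 at 0.0060 with array weights. Without controls 4 and 6, H1f1 was at 0.0079, H1f5 at 0.026, H1f7 at -0.015, H3f3a at 0.0012 and H4c4 at 0.035. With the tissue means, H1f5 was at 0.0090, H1f7 at -0.056, H3f3a at 0.061 and H4c4 at 0.051. With the oligodendrocyte mean, H1f1 was at 0.037, H1f5 at 0.13, H1f6 at -0.055, H1f7 at -0.088, H3f3a at 0.074 and H4c14 at -0.0012. The cause was not tested.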
